A study of Mus musculus with 20 samples.

Results

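Outputs of the circadian clock were followed through a time course of HIRA knockout (KO) in mouse liver. The 9 genes were Dbp, Tef, Hlf, Nfil3, Ciart, Bhlhe40, Bhlhe41, Usp2 and Wee1, found by gene symbol among 55421 genes in the count table, and all 9 were among the 22867 genes with at least 10 counts in total that entered the test. The set was chosen by its readout in these same livers, with the 3-week difference between HIRA KO and control and the difference between the control time points already known. Both comparisons are therefore given as a description, with no p for any of the 9; how many of the 9 passed the thresholds is stated beside the share over all genes and supports nothing. Bulk RNA-seq was made from polyA RNA of 20 livers in 4 groups of 5 mice.

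All mice were wildtype C57BL/6, and the labels call them female, although males are named in the results text of the paper and females in a legend. Each received AAV8-Tbg-saCAS9/U6-sgRNA, a virus that makes Cas9 from the hepatocyte promoter Tbg together with a guide RNA, at 6 months of age. The guide was directed against Hira, which encodes a chaperone of histone H3.3, or against Rosa26, a locus commonly used as a neutral target. Livers were taken 3 weeks or 6 months after injection, which gave the groups Rosa26 control 3 weeks, HIRA KO 3 weeks, Rosa26 control 6 months and HIRA KO 6 months. Cas9 and virus are thus shared by all 4 groups, and cells other than hepatocytes were not targeted but were sequenced. The hour at which each liver was taken is not given in the sources used here, and the level of a rhythmic gene depends on that hour.

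DBP, TEF and HLF are the PAR bZIP factors, activators that bind a DNA element named the D-box, and NFIL3 (E4BP4) is a repressor that binds the same element. The heterodimer of BMAL1 (gene Arntl) and CLOCK drives Dbp, Ciart and other outputs through E-boxes, and the receptors REV-ERB and ROR act on Nfil3 with a different phase. CIART, BHLHE40 and BHLHE41 feed back as repressors on BMAL1-CLOCK. USP2 is a deubiquitinase and WEE1 a kinase that restrains entry into mitosis, and both are well known as rhythmic transcripts in liver. In bulk tissue, a change in the number of cells of a type and a change of RNA per cell cannot be told apart.

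The E-boxes next to the start sites are shown first because E-box drive is the feature these genes are known for. Start-site windows from RefSeq (GRCm38.p6, 250 bases before to 50 after the start) were given for 7 of the 9 genes, with 2 windows for Tef. No window was given for Bhlhe40 or Wee1. The letters CACGTG, the E-box, were found in the windows of Ciart, Tef and Bhlhe41, against 7.15% of all 32851 windows. In the sequences below, written 5′ to 3′ on the gene's strand, capitals mark the matched motif.
Ciart, chr3:95882258-95882353, minus strand: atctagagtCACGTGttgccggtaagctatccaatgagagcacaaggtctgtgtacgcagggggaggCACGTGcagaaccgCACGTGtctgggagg
Tef, first window, chr15:81802537-81802560, plus strand: ctgtggctcCACGTGctgcagctg
Tef, second window, chr15:81811267-81811290, plus strand: ctggcccagCACGTGtctacatcg
Bhlhe41, chr6:145865559-145865582, minus strand: tacgttccgCACGTGagctgggtg
Nfil3, chr13:52981040-52981060, minus strand: gctcggaacTGACCTactaac

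The Ciart stretch held 3 E-boxes, whose first bases lie at -116, -58 and -44 from the start, and 0.0883% of all windows (29 of 32851) held 3 or more. The E-boxes of Tef began at -127 and -138 of their respective starts, and that of Bhlhe41 at -153. In Nfil3 the capitals mark a match at -12 to the other strand of AGGTCA, the element that ROR and REV-ERB receptors bind, which 16.3% of windows hold. The windows of Dbp, Usp2, Hlf and Nfil3 held no CACGTG. Hlf alone held the cyclic AMP response element TGACGTCA, at -9 (1.79% of windows), and none held the D-box spelled TTACGTAA or TTATGTAA (1.06%). All motifs were searched on both strands, no match overlapped another, and a match of letters is a description of the window and not a binding site. The first Tef stretch and the Nfil3 stretch lie in annotated exons, and the other stretches lie outside exons.

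The libraries held 19916430 to 24079736 counts. One library went against its label: in HIRA KO 6-month replicate 5, Xist, the X-inactivation RNA of females, had 9 counts and 4 Y-linked genes summed to 2041, whereas the other 19 libraries had 6286 to 8436 and 0 to 13. The 6-month differences of the 9 genes between guides, and the counts of the lists, are therefore also given without it. The transcript ratio, the order per exon length, the correlations between the 9 genes and the interaction sizes include it. Hira itself had 128 to 171 counts in Rosa26 controls and 87 to 127 in HIRA KO at 3 weeks, a log2 fold change of -0.48 ± 0.14 (SE, adjusted p = 0.197). At 6 months the groups had 105 to 157 and 109 to 136 counts, and the difference was -0.10 ± 0.14 (adjusted p = 0.794, edgeR's quasi-likelihood test as for all adjusted p-values here). Hira transcript thus did not pass the test at either time in whole liver, although the 3-week groups did not overlap in CPM, as in 2.69% of all genes. Transcript level does not measure protein. By western blot, the paper reports loss of HIRA protein in its CRISPR knockouts relative to Rosa26 controls. None of the 20 markers of hepatocytes, cholangiocytes, Kupffer, stellate and endothelial cells and lymphocytes passed both thresholds in any of the 5 comparisons by edgeR, DESeq2 or limma-voom (10 unadjusted p-values under 0.05 in all by edgeR), and none was at 0 throughout a group.

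Levels below are counts, CPM (counts scaled to a common library size), or log2 CPM, where a step of 1 is a doubling. Values after ± are SD over 5 livers for levels and SE for log2 fold changes. A gene was called when its absolute log2 fold change was above 1 and its Benjamini-Hochberg adjusted p over all 22867 genes was under 0.05. At 3 weeks, HIRA KO livers had more Dbp, Tef, Ciart, Usp2 and Wee1 transcript than Rosa26 controls, and less Nfil3, and in each of these 6 genes the groups did not overlap. By 6 months the Rosa26 controls themselves stood near the HIRA KO level for Dbp and Tef, and HIRA KO and control overlapped in all 9 genes. The largest fitted difference at 6 months was that of Usp2, 2.75-fold, which missed the adjusted threshold. Ciart followed at 2.24-fold and Bhlhe41 at 1.76-fold, and these missed it too.

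**Figure D1:**
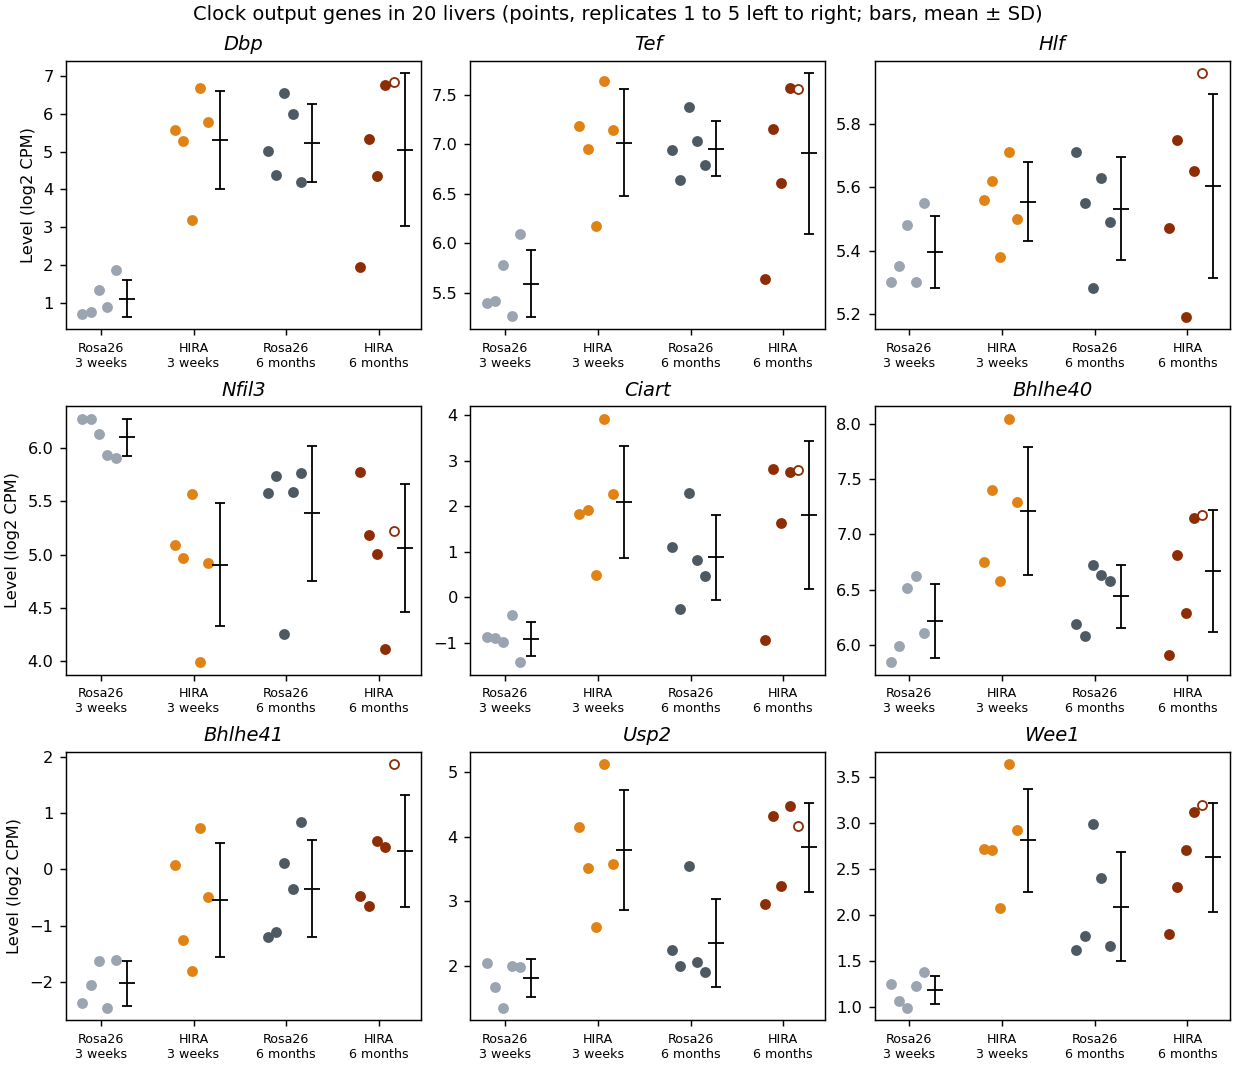
Level of each of the 9 genes in every liver, as log2 CPM on the vertical axis, with the 4 groups on the horizontal axis. Points are livers in replicate order, the bar beside each group is its mean ± SD (n = 5), and the open point is the HIRA KO 6-month library that goes against its sex label. Rosa26 controls at 3 weeks form a tight low group for Dbp (0.69 to 1.86), and the other 3 groups spread from 1.94 to 6.85.

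Dbp (ENSMUSG00000059824.12, chr7:45705088-45710203 of GRCm38, plus strand, GENCODE M21 annotation as for the genes below) encodes the founding PAR bZIP factor, a transcript with a wide daily swing in liver. In Rosa26 controls at 3 weeks it had 30, 32, 52, 39 and 76 counts in replicates 1 to 5. In HIRA KO at 3 weeks it had 1032, 826, 187, 2372 and 1158. Every HIRA KO liver was above every control, with replicate 3 lowest and replicate 4 highest. In Rosa26 controls at 6 months the counts were 761, 447, 2211, 1370 and 395. In HIRA KO at 6 months they were 96, 887, 495, 2252 and 2264. The control group at 6 months thus lay wholly above the control group at 3 weeks, while HIRA KO at 6 months ran from near the 3-week controls (replicate 1) to above every control.

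The group levels of Dbp were 1.10 ± 0.49, 5.31 ± 1.30, 5.23 ± 1.03 and 5.06 ± 2.03 log2 CPM in the order Rosa26 3 weeks, HIRA KO 3 weeks, Rosa26 6 months and HIRA KO 6 months. The upper 3 groups differed by less than their spread, and the 3-week control stood apart. The fitted difference of HIRA KO from Rosa26 was 4.55 ± 0.79 on the log2 scale at 3 weeks, or 23.4-fold. At 6 months it was 0.33 ± 0.64, with an interval of -1.03 to 1.68 and an adjusted p of 0.866. Without the library that goes against its label the 6-month value was -0.08 (adjusted p = 0.966). The CPM of the highest liver was 2.33 times that of the lowest among 3-week controls and 30.6 times in HIRA KO at 6 months.

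Dbp shares 539 exon bases with Sphk2, a gene on the opposite strand that held 201% as many counts over all libraries. Whether counting used strand is not stated, so reads in the shared bases cannot be assigned with certainty. Sphk2 differed by 0.28 ± 0.12 at 3 weeks on the log2 scale, against 4.55 for Dbp.

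Tef (ENSMUSG00000022389.15, chr15:81802421-81826863, plus strand) encodes the second PAR bZIP activator. It had 832, 855, 1190, 854 and 1458 counts in the 3-week controls. HIRA KO livers at 3 weeks had 3135, 2628, 1486, 4547 and 2960. The groups did not overlap, but replicate 3 of HIRA KO lay close to replicate 5 of the controls. At 6 months the controls had 2865, 2132, 3842, 2824 and 2413 counts. HIRA KO then had 1274, 3119, 2346, 3890 and 3710, so that the knockout group spanned the control group on both sides. The log2 difference was 1.47 ± 0.29 (2.76-fold) at 3 weeks. At 6 months it was 0.09 ± 0.28, with an interval of -0.52 to 0.69 (adjusted p = 0.924), and -0.07 without replicate 5 of HIRA KO.

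Hlf (ENSMUSG00000003949.16, chr11:90336536-90390895, minus strand) is the third PAR bZIP gene. Its counts ran from 778 to 1006 in 3-week controls, 859 to 1197 in 3-week HIRA KO, 900 to 1227 in 6-month controls and 877 to 1223 in 6-month HIRA KO. All 4 groups overlapped. The log2 difference between HIRA KO and control was 0.16 ± 0.11 at 3 weeks. At 6 months it was 0.09 ± 0.11 (interval -0.15 to 0.33, adjusted p = 0.772), and -0.0073 without replicate 5 of HIRA KO. The 95% interval at 3 weeks was -0.08 to 0.40 for Hlf and 0.85 to 2.08 for Tef. Since the genes were chosen with that comparison known, these intervals are a description and not a test.

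Nfil3 (ENSMUSG00000056749.7, chr13:52967209-52981073, minus strand), the D-box repressor, went the other way. It had 1525, 1547, 1508, 1356 and 1293 counts in 3-week controls. In HIRA KO at 3 weeks it had 737, 665, 982, 360 and 632. The lowest control was above the highest HIRA KO liver, and replicates 3 and 4, the extremes for Dbp, were the extremes here in reverse. Controls at 6 months had 1118, 1145, 442, 1036 and 1188 counts, and HIRA KO had 1403, 801, 775, 353 and 732. One low control, replicate 3, lay far from the other 4. The log2 difference was -1.12 ± 0.28 at 3 weeks and -0.32 ± 0.28 at 6 months (interval -0.91 to 0.27, adjusted p = 0.639), and at that time -0.34 without replicate 5 of HIRA KO.

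Activators and repressor were set against each other per exon length, since they compete for the same element. The CPM per kilobase of Dbp, Tef and Hlf was summed and divided by that of Nfil3 in each liver. In 3-week controls this ratio was 0.309 to 0.566, so the repressor transcript was the more abundant in all 5 livers. In HIRA KO at 3 weeks it was 0.784 to 8.72, and by these exon lengths above 1 in 4 livers. It was 0.997 to 6.24 in 6-month controls and 0.525 to 8.04 in 6-month HIRA KO, which overlapped. Medians were 0.376, 2.46, 1.45 and 2.20 in the order of groups used above. These are transcript levels and do not measure protein or binding. The side of 1 on which a liver falls also depends on the lengths used, which merge all annotated exons of a gene. In the authors' FPKM, their own level per length, Tef alone was above Nfil3 in Rosa26 6-month replicate 5. The ratio of that liver was 0.997 here.

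Ciart (ENSMUSG00000038550.10, chr3:95878503-95882251, minus strand), the repressor gene whose window held 3 E-boxes, was scarce in 3-week controls. Its counts there were 9, 9, 9, 15 and 6, and in HIRA KO at 3 weeks 75, 79, 27, 344 and 99. The groups did not overlap. In 6-month controls it had 48, 16, 111, 36 and 28 counts, and in HIRA KO 11, 152, 72, 136 and 134. In HIRA KO, 3 of the 5 livers were above every control, and replicate 1 of HIRA KO was below every control. The log2 difference was 3.62 ± 0.71 (12.3-fold) at 3 weeks. At 6 months it was 1.16 ± 0.60, with an interval of -0.11 to 2.44 (adjusted p = 0.361), and 0.99 without replicate 5 of HIRA KO. C920021L13Rik, which overlaps Ciart on the other strand without shared exon bases, held 26.1% as many counts.

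Bhlhe40 and Bhlhe41 encode related repressors that differ greatly in abundance here. Bhlhe40 (ENSMUSG00000030103.11, chr6:108660629-108666925, plus strand) had 1129 to 2181 counts in 3-week controls and 1971 to 6067 in 3-week HIRA KO, with 1 control above the lowest HIRA KO liver. It had 1445 to 2454 and 1532 to 2899 at 6 months. The log2 difference was 1.07 ± 0.26 at 3 weeks and 0.28 ± 0.26 at 6 months (interval -0.26 to 0.83, adjusted p = 0.659), where it was 0.15 without replicate 5 of HIRA KO. The highest liver of all 20 was HIRA KO 3-week replicate 4. Bhlhe41 (ENSMUSG00000030256.11, chr6:145858243-145865558, minus strand) had 2, 3, 5, 2 and 5 counts in 3-week controls and 21, 7, 4, 36 and 13 in HIRA KO. At 3 weeks its log2 difference was 2.16 ± 0.67. At 6 months the controls had 8 to 37 counts and HIRA KO 12 to 70, a log2 difference of 0.81 ± 0.53 (adjusted p = 0.5) that was 0.18 without replicate 5 of HIRA KO (adjusted p = 0.904).

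Usp2 (ENSMUSG00000032010.15, chr9:44067021-44095627, plus strand) had 80, 62, 53, 86 and 83 counts in 3-week controls. In HIRA KO at 3 weeks it had 387, 241, 123, 798 and 249. The groups did not overlap. Controls at 6 months had 109, 83, 271, 88 and 80 counts, and HIRA KO had 197, 440, 225, 455 and 353. All 5 HIRA KO livers were above 4 of the 5 controls, and control replicate 3 lay inside the HIRA KO range. The log2 difference was 2.24 ± 0.42 (4.72-fold) at 3 weeks and 1.46 ± 0.40 (2.75-fold, interval 0.60 to 2.32) at 6 months. The 6-month value had the smallest adjusted p of the 9 genes, 0.0782, which missed the threshold. It was past the threshold in DESeq2 (adjusted p = 0.0118), without Rosa26 6-month replicate 3, the control with the most Usp2 (1.92, adjusted p = 0.0272), and without HIRA KO 3-week replicate 4 (1.46, adjusted p = 0.0467), a library outside this comparison that enters the shared spread. Without the library that goes against its sex label it was 1.40 (adjusted p = 0.0931).

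Wee1 (ENSMUSG00000031016.9, chr7:110122046-110143286, plus strand) had 45, 40, 41, 50 and 54 counts in 3-week controls. HIRA KO livers at 3 weeks had 141, 137, 85, 282 and 157, all above the controls. At 6 months the controls had 70, 71, 183, 112 and 67 and HIRA KO had 86, 106, 156, 176 and 179. The groups overlapped through control replicates 3 and 4. The log2 difference was 1.75 ± 0.32 (3.37-fold) at 3 weeks and 0.52 ± 0.30 at 6 months (interval -0.11 to 1.16, adjusted p = 0.429). Without replicate 5 of HIRA KO the latter was 0.37.

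**Figure D2:**
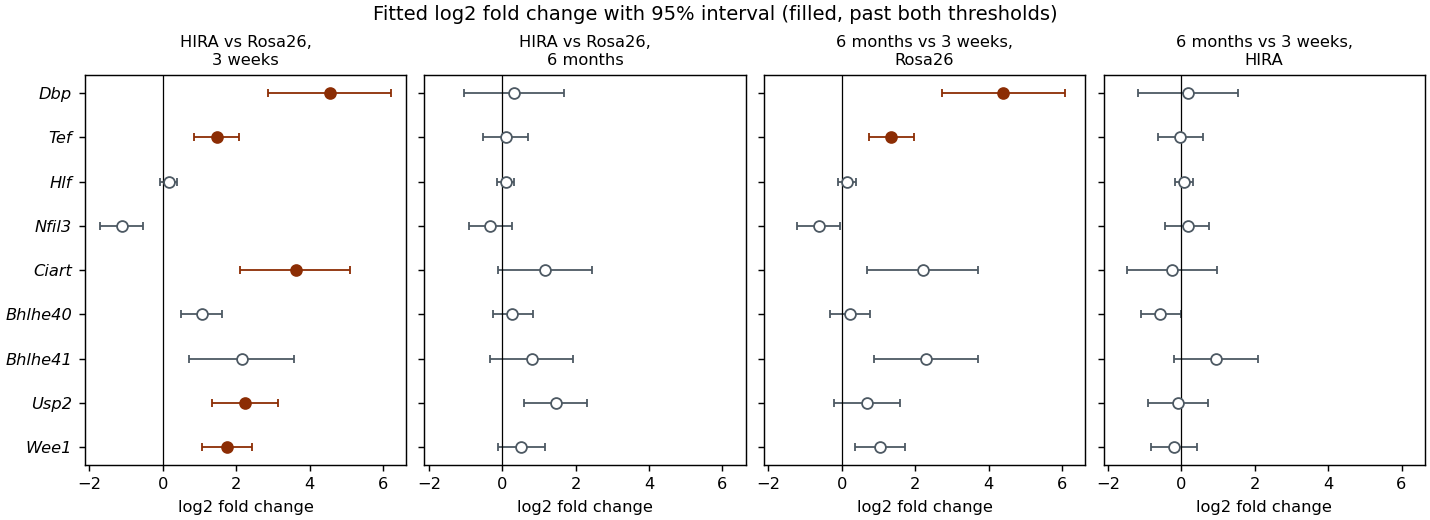
Fitted log2 fold change of each gene (horizontal axis) in 4 comparisons, with its 95% interval; filled points passed both thresholds. The panels for 3 weeks and for the Rosa26 time points, the comparisons with which the genes were chosen, hold the values up to 4.55 and 4.40 for Dbp, whereas the panels for 6 months and for the HIRA KO time points lie nearer 0.

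Of the 9 genes, 5 were called at 3 weeks (Dbp, Tef, Ciart, Usp2 and Wee1, all higher in HIRA KO), where 0.114% of all genes were called, and 6 did not overlap between the groups, as did 2.69% of all genes. Since this comparison was used to choose the genes, nothing is read from these shares. The count fell when most single 3-week livers were left out. It was 0 without Rosa26 3-week replicate 1, 2, 3 or 4 or HIRA KO 3-week replicate 4 or 5. Without HIRA KO 3-week replicate 1 it was 2. It was 3 without Rosa26 3-week replicate 5, HIRA KO 3-week replicate 2 or Rosa26 6-month replicate 4, and limma-voom called 0 where DESeq2 called 7. Over the left-out libraries Dbp ranged from 4.11 to 4.81 and Ciart from 2.84 to 3.87 on the log2 scale. On the log2(FPKM + 1) scale, which understates the change of low genes, the 3-week values were 3.55 for Dbp, 1.49 for Ciart, 0.84 for Wee1, 1.41 for Usp2 and 0.13 for Bhlhe41.

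The 6-month comparison of guides shares the Rosa26 6-month livers with the comparison of control time points that was known when the genes were chosen, so its p-values are not fully independent of that choice. At 6 months edgeR called 0 of the 9, against 0.332% of all genes. Usp2 was the 1 gene with an unadjusted p under 0.05, DESeq2 called it alone, and limma-voom called 0. None of the 9 was without overlap, as against 3.15% of all genes. The median log2 difference over the 9 genes was 1.75 at 3 weeks and 0.33 at 6 months, beside -0.006 and 0.029 over all genes tested. At both times 8 genes were above 0 and Nfil3 was below 0. Without HIRA KO 6-month replicate 5 the median at 6 months was 0.15, 5 genes were above 0, and 0 were called.

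The difference between the 3-week and 6-month effects of the guide was fitted as an interaction. It contains the 3-week difference that the genes were chosen with, so its sizes are a description. It was -4.22 ± 1.00 on the log2 scale for Dbp, -2.46 ± 0.92 for Ciart, -1.38 ± 0.40 for Tef and -1.23 ± 0.43 for Wee1. For Usp2 it was -0.78 ± 0.57 and for Nfil3 0.80 ± 0.40. No gene in the table passed (0.0% called, smallest adjusted p = 0.614). Over all genes, 1514 had an unadjusted p under 0.05, and DESeq2 also called 0.

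Comparing the time points within an arm separates the controls from the knockouts. In Rosa26 controls, Dbp was higher at 6 months than at 3 weeks by 4.40 ± 0.79 (21.1-fold) and Tef by 1.35 ± 0.29 (2.55-fold) on the log2 scale. These 2 genes were called by edgeR, against 0.162% of all genes (DESeq2 called 5 of the 9, and limma-voom and both FPKM fits called 0), and 6 genes did not overlap (Dbp, Tef, Nfil3, Ciart, Bhlhe41 and Wee1), against 3.50% of all. This comparison shares the 3-week controls with the 3-week comparison of guides, and was known when the genes were chosen. Ciart differed by 2.20 ± 0.71, Bhlhe41 by 2.30 ± 0.67, Wee1 by 1.04 ± 0.32 and Nfil3 by -0.63 ± 0.28. Usp2 differed by 0.69 ± 0.42. The call of both genes was lost without Rosa26 3-week replicate 1, 3 or 4 or Rosa26 6-month replicate 3 or 4, and 1 was left without 7 other libraries, among them Rosa26 3-week replicate 2.

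In HIRA KO livers none of the 9 was called between 3 weeks and 6 months by edgeR, DESeq2 or limma-voom, where edgeR called 0.0569% of all genes, and none was without overlap (1.47% of all genes). Dbp differed by 0.18 ± 0.64 (adjusted p = 0.962) and Tef by -0.03 ± 0.28 (adjusted p = 0.992). Bhlhe40 was the 1 gene with an unadjusted p under 0.05, at -0.57 ± 0.26 (adjusted p = 0.537). This comparison uses the same 3-week HIRA KO livers as the comparison of guides. The latter was known when the genes were chosen, so the p-values between the HIRA KO times are not independent of that choice. The intervals stay wide for the most variable genes, -1.17 to 1.54 for Dbp and -1.48 to 0.97 for Ciart. Without HIRA KO 6-month replicate 5, 0 were called, Dbp differed by -0.23 (adjusted p = 0.947) and Bhlhe40 by -0.70 (adjusted p = 0.374).

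Compared per exon length, the order of the 9 transcripts was not the same in the groups. In 3-week controls Nfil3 was highest at 34.1 ± 4.10 CPM per kilobase, followed by Bhlhe40 at 16.1 ± 3.81. Hlf (6.31 ± 0.502) and Tef (6.26 ± 1.54) did not differ beyond their spread, nor did Dbp (0.723 ± 0.282), Usp2 (0.720 ± 0.141) and Wee1 (0.640 ± 0.0718). Ciart (0.201) and Bhlhe41 (0.0240) were lowest. In 3-week HIRA KO, Bhlhe40 came first at 33.7 ± 14.3, and Tef (17.3 ± 5.81), Dbp (17.0 ± 11.5) and Nfil3 (15.7 ± 5.59) followed within each other's spread. In 6-month controls Nfil3 (22.0 ± 7.20), Bhlhe40 (18.7 ± 3.58), Tef (16.0 ± 3.19) and Dbp (15.4 ± 11.0) were not separated beyond their spread. The same 4 led in 6-month HIRA KO, at 17.0 to 22.8. The order between genes depends on the lengths used, which merge all annotated exons of a gene. In 6-month controls, Tef was below Nfil3 by these lengths in every liver but replicate 3. In the authors' FPKM, Tef was above Nfil3 in every liver of that group but replicate 2. The order of the genes is therefore a description by these lengths alone.

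Within a group, single livers sat high or low for many of the genes at once. HIRA KO 3-week replicate 4 was the highest of its group for 8 genes and the lowest for Nfil3, and replicate 3 was the lowest for the same 8 and the highest for Nfil3. Rosa26 6-month replicate 3 was the highest for 6 genes, and HIRA KO 6-month replicate 1 was the lowest for 6 and the highest for Nfil3. HIRA KO 6-month replicate 5, the library with the sex mismatch, was highest for 5. In 3-week controls the spread was small, and replicate 5 was the highest for 5 genes.

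**Figure D3:**
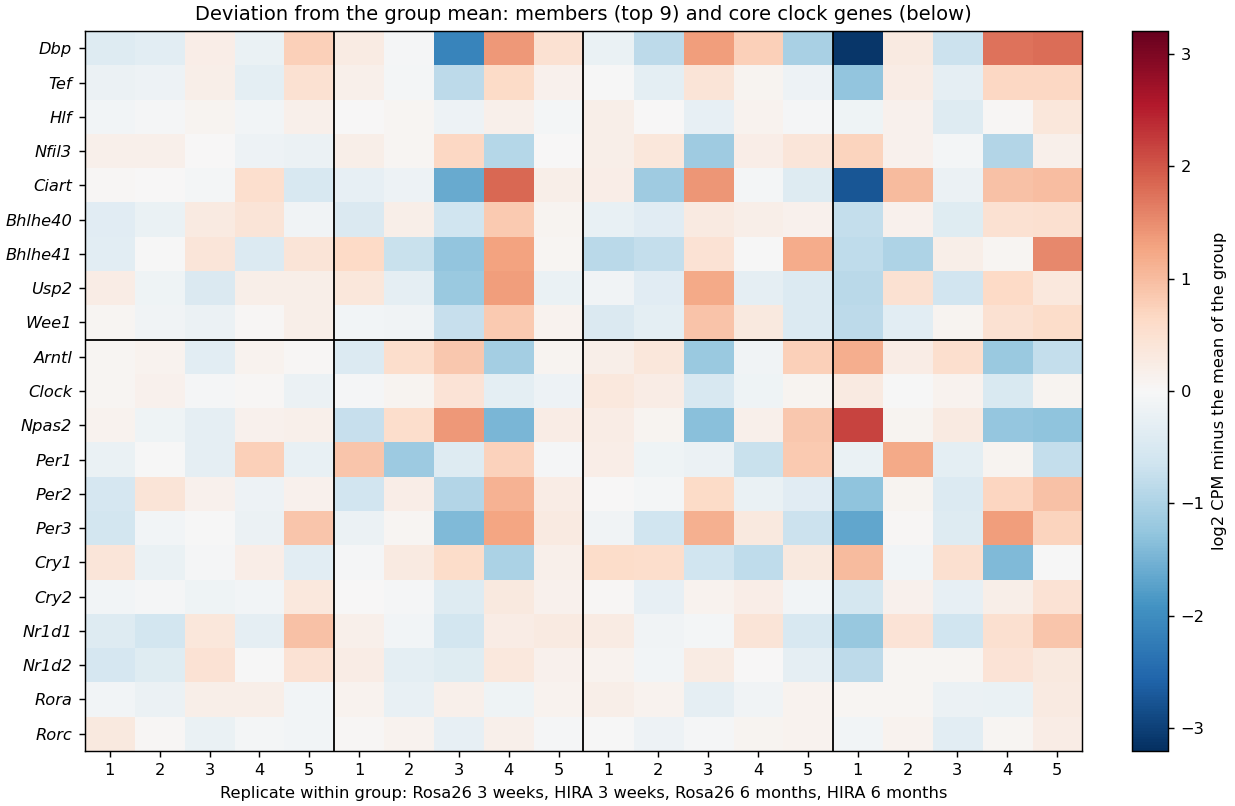
Log2 CPM of each gene (rows) in each liver (columns) minus the mean of its group of 5. Red is above and blue below the group mean; the 9 clock output genes are above the horizontal line and 12 core clock genes below it. In HIRA KO 3-week replicate 4 and Rosa26 6-month replicate 3, Dbp, Ciart, Usp2 and Wee1 are red while Nfil3, Arntl and Npas2 are blue, and HIRA KO 6-month replicate 1 shows the reverse.

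After the group means were removed, Dbp and Tef moved together across the 20 livers (Pearson r = 0.97). Dbp was related to Ciart and Wee1 with r = 0.87 each, to Bhlhe40 with 0.79, to Usp2 with 0.78, to Bhlhe41 with 0.58 and to Hlf with 0.49. Its r with Nfil3 was -0.75, and Nfil3 was related to Wee1 with -0.85 and to Usp2 with -0.83. These values are descriptions over 20 livers that share their libraries, and no p is attached to them. The r of Hlf ran from 0.16 with Wee1 to 0.55 with Tef among the genes other than Nfil3.

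The genes most like Dbp were sought among 12895 genes with a mean of at least 1 CPM, by Pearson r over the same deviations. Per3 (0.96), Tbc1d10a (0.93), Cry2 (0.92), Dclre1a (0.89), Per2 (0.86), Pfkfb1 and Tmem97 (0.85 each), and Slc38a3 and Them7 (0.84 each) came first, and an unnamed gene model (0.83) closed the 10 highest. Among the most opposite were Npas2 (-0.90), Arntl and Clpx (-0.89 each) and Leo1 (-0.87). For scale, the 5th and 95th percentiles of r over all these genes were -0.50 and 0.51. Ranked by Spearman's rho, or without HIRA KO 6-month replicate 5, 5 of the 10 highest stayed among the 10.

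**Figure D4:**
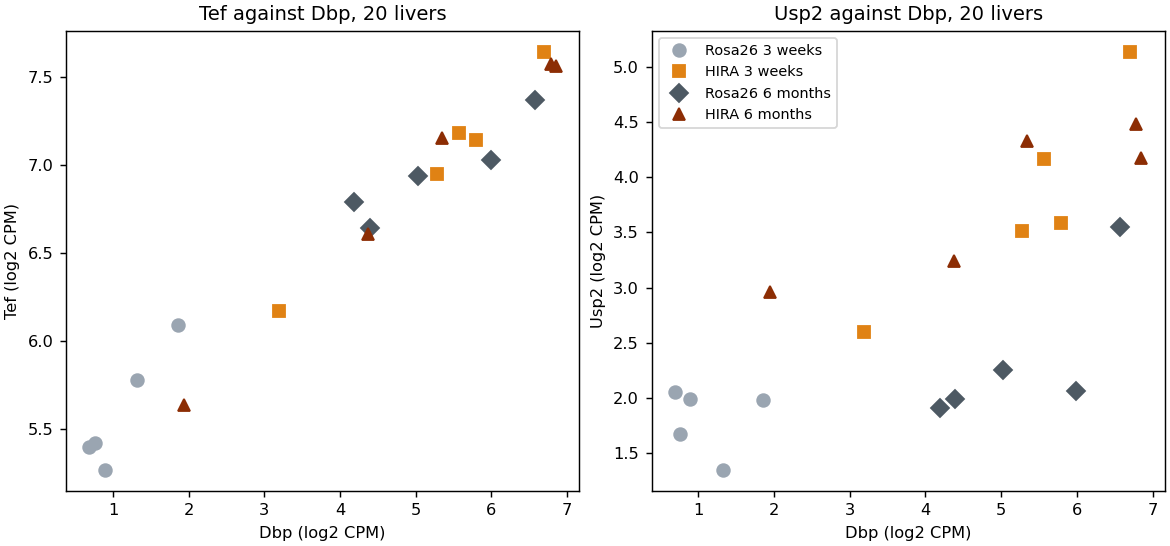
Tef (left) and Usp2 (right) against Dbp, both axes in log2 CPM, 1 point per liver with a marker for each of the 4 groups. Tef and Dbp lie along a single band through all groups, whereas 4 of the 5 Rosa26 6-month livers (dark diamonds) have Usp2 at 1.91 to 2.25 with Dbp at 4.19 to 5.99, lower in Usp2 than every HIRA KO liver.

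Usp2 and Dbp parted in the 6-month controls. Those livers had Dbp at 4.19 to 6.57 log2 CPM, above all 3-week controls, but 4 of the 5 had Usp2 at 1.91 to 2.25, next to the 1.35 to 2.05 of the 3-week controls. HIRA KO livers at 6 months had Usp2 at 2.96 to 4.48. The liver with the least Dbp among them, replicate 1 at 1.94, still had Usp2 at 2.96, above those 4 controls. This pattern was seen in the values and has no test of its own.

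Of 13 core clock genes listed, 12 were tested (Rorb did not pass the filter on low counts). This list and those below were written with earlier results of these data known, so their calls and p-values are a description. At 3 weeks Per3, a target of E-boxes and D-boxes, differed by 2.56 ± 0.53 on the log2 scale and Nr1d2, which encodes REV-ERBβ, by 1.19 ± 0.22, and edgeR called these 2 of 12, against 0.114% of all genes. DESeq2 called 3 and limma-voom 1. Nr1d1, which encodes REV-ERBα, differed by 1.43 ± 0.33 and was not called. Arntl (-1.04 ± 0.39) and Npas2 (-1.72 ± 0.55), from the activating limb, were not called either. Each call depended on single livers, as Per3 was called in 8 and Nr1d2 in 14 of the 20 fits that left 1 library out. In Rosa26 controls between the time points the same 2 were called by edgeR, against 0.162% of all genes (DESeq2 called 4 and limma-voom 0), Per3 at 2.69 ± 0.53 and Nr1d2 at 1.02 ± 0.22, and these held in 14 and 6 of the 20 fits.

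At 6 months edgeR and limma-voom called 0 of the 12 core clock genes between HIRA KO and Rosa26 and DESeq2 called 1 (Per1), where edgeR called 0.332% of all genes, and their median log2 difference was -0.02. Without HIRA KO 6-month replicate 5 edgeR called 0, and the median was -0.031. The largest difference was that of Per1, a period gene that also responds to hormones and feeding, at 1.18 ± 0.38 (edgeR adjusted p = 0.131), the 1 gene of the list with an unadjusted p under 0.05. Between the HIRA KO time points 0 were called by the 3 tools, where edgeR called 0.0569% of all genes, and 0 had an unadjusted p under 0.05. Without HIRA KO 6-month replicate 5 edgeR also called 0 there.

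Liver genes linked to the PAR bZIP factors were followed as a list. By edgeR, none of the 8 (Nr1i3, Alas1, Por, Cyp2a5, Cyp2b10, Cyp2c37, Cyp2c50 and Cyp7a1) was called in any comparison, where 0.0% to 0.332% of all genes were called. Over the 5 comparisons there were 7 unadjusted p-values under 0.05 in 40 tests (17.5%), beside 10.5% over all genes and comparisons, and DESeq2 made 1 call (Cyp2a5 at 3 weeks) and limma-voom 0. The comparisons share livers, and Alas1 and Cyp2a5 recur among the 7. The 40 are therefore not separate tests, and nothing is read from the share. Cyp2a5, a cytochrome P450 with a known daily rhythm, had a log2 difference of 1.00 ± 0.28 at 3 weeks and 0.26 ± 0.28 at 6 months (adjusted p = 0.728). Its r with Dbp within groups was 0.71, ranked 95 of 12895. Por, the reductase that serves the P450 enzymes, differed by 0.52 ± 0.17 at 3 weeks, and Nr1i3, which encodes the receptor CAR, by -0.24 ± 0.24. At 6 months all 8 were above 0 with a median of 0.14, beside 0.029 over all genes. Without HIRA KO 6-month replicate 5, 6 of the 8 were above 0 with a median of 0.32, and 0 were called at 6 months or between the HIRA KO times. With all libraries, the 8 log2 differences at 6 months ran from 0.04 for Cyp7a1 to 0.59 for Alas1 (edgeR adjusted p = 0.214). Cyp7a1 is the rate-limiting enzyme of bile acid synthesis and Alas1 the first enzyme of heme synthesis.

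Of 7 other liver transcripts with a daily rhythm, Noct, Nampt, Lonrf3, Tsku, Rgs16, Tsc22d3 and Gys2, edgeR called only Tsku, at 6 months, over the 5 comparisons, against 0.332% of all genes at that time. Because this list was written with earlier results of these data known, the call and the p-values of Tsku are a description. Tsku encodes tsukushi, a secreted protein made by the liver. It had 771, 462, 555, 152 and 184 counts in 6-month controls and 2416, 1045, 2259, 739 and 2298 in HIRA KO. The groups did not overlap in CPM, and the log2 difference was 2.05 ± 0.41 (4.14-fold, adjusted p = 0.0204), and 1.86 without replicate 5 of HIRA KO (adjusted p = 0.0268). Without that library Tsku remained the 1 call of the 7 at 6 months, and 0 were called between the HIRA KO times. It was not called without Rosa26 6-month replicate 4 (adjusted p = 0.0619) or when only the 6-month libraries were fitted. At 3 weeks the difference was 0.45 ± 0.39, and the difference between the times, 1.60 ± 0.56, did not pass the test (adjusted p = 0.685). Its r with Dbp within groups was -0.25.

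Markers of other cells varied most at 6 months, the time at which the 9 genes overlapped. The summed CPM of 3 lymphocyte markers was 3.71 to 15.0 (median 5.38) in controls and 3.56 to 20.0 (median 12.9) in HIRA KO. That of 3 Kupffer cell markers was 76.0 to 534 (median 82.7) and 45.1 to 306 (median 125). That of 3 stellate cell markers was 31.2 to 60.8 (median 44.7) and 25.3 to 144 (median 49.0). At 3 weeks the Kupffer sums were 119 to 167 and 119 to 209, and the lymphocyte sums were 4.05 to 6.99 (median 4.71) in controls and 6.00 to 9.24 (median 7.34) in HIRA KO. Hepatocyte markers summed to 87900 to 137000 CPM in 3-week controls and 117000 to 155000 in 3-week HIRA KO. At 6 months they summed to 76600 to 113000 in controls and 95600 to 134000 in HIRA KO. Endothelial sums were 118 to 149 in 3-week controls and 129 to 144 in 3-week HIRA KO. At 6 months these were 77.2 to 125 and 88.3 to 141. The part of any of these cells in the clock output differences was not tested.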

How the data were processed

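PolyA RNA of 20 livers was sequenced from stranded libraries. The authors used STAR to align reads to mm10, the same assembly as GRCm38, and the deposited counts per gene are raw. Their methods name HOMER, and the submitters' processing notes list HTSeq and Cufflinks. Use of strand in counting is not stated. The deposited FPKM values, made by the authors, entered alternatives alone, with limma on log2(FPKM + 1) and log2(FPKM + 0.1) and blanks set to 0.

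Groups and replicate numbers were taken from the sample titles, and the 5 mice of a group were treated as separate samples. Genes with at least 10 counts in total were kept, as in the study's methods, and fitted in 1 model with 4 group means and TMM scaling (edgeR 4.0.16, quasi-likelihood test, Benjamini-Hochberg adjustment over 22867 genes). Log2 CPM used a prior count of 2. The 95% intervals used the t quantile at 16 residual degrees of freedom. DESeq2 1.42.0, limma 3.58.1 (voom and FPKM), other scalings and filters, a replicate block, the libraries of a comparison alone and each library left out were alternatives. R 4.3.3 and Python 3.11.15 were used, and the test was tested on simulated data.

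The 9 genes, the lists and the markers were chosen with earlier results of these data known. Named genes are the 9, 3 lists (core clock, genes linked to PAR bZIP factors, other rhythmic transcripts), genes overlapping a member, Hira, sex-linked genes for 1 library, and the 10 most and 5 least like Dbp, of which 1 is not reported here. Of the identifiers, 98.7% matched GENCODE M21. No 2 replicates agreed within sampling noise (chi-square per degree of freedom 13.7 to 109). Depth was 19916430 to 24079736 counts.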

Additional observations from a re-analysis of the deposited data

Results flagged for a closer look

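Dixon's test at the 95% level marked 2 of 36 groups (9 genes in 4 groups), and chance marks about 1 in 20. Both marks were in Rosa26 6-month replicate 3, in genes that are related across livers (r = -0.83). Its Nfil3 level was 4.26 log2 CPM where the other 4 livers had 5.58 to 5.77, a gap of 0.874 of the range. Its Usp2 level was 3.55 where the others had 1.91 to 2.25, a gap of 0.796 of the range. This liver also had the highest Dbp, Tef, Ciart, Bhlhe40 and Wee1 of its group. Leaving out the control with the most Usp2 must raise the difference: without it, the 6-month difference of Usp2 between HIRA KO and Rosa26 was 1.92 on the log2 scale (edgeR adjusted p = 0.0272) in place of 1.46 (0.0782). The cause was not tested.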

How the results depend on the processing

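The number of the 9 genes called at 3 weeks (5) stayed within 1.5 times under DESeq2 (7), other scalings and filters (5), the 3-week libraries alone (6) and the replicate block (6), and was 0 in limma-voom and with FPKM plus 1 or 0.1. It ranged from 0 to 6 over the left-out libraries. For Rosa26 controls between the times (2) it was 5 in DESeq2, 0 in limma-voom and with either FPKM pseudocount, and 0 to 2 over the left-out libraries. At 6 months (0) it was 1 in DESeq2 and 0 to 1 over the left-out libraries. It was 0 throughout for HIRA KO between the times and for the interaction, the latter not run on the libraries of a comparison alone. Bhlhe41 was not tested at a mean of at least 1 CPM. Of 30 same-numbered pairs of libraries (r of -0.31 to 0.33), 14 were over 0.1 and 10 were best with their own number, and the labels state no shared batch, so the livers were treated as unpaired; the block added Bhlhe40 at 3 weeks and gave 0 calls at 6 months and 2 in the controls. Of the 10 genes most like Dbp, 5 remained by Spearman's rho and 5 without HIRA 6-month replicate 5.

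Of 1336 alternative values of single genes, 1211 kept direction and side of the threshold, 79 lost and 11 gained the call, and 35 changed sign, none of them called. At 6 months Dbp was -0.22 in limma-voom, -0.022 with the block, -0.051 with FPKM plus 1 and -0.10 with FPKM plus 0.1, and Tef was -0.047 in limma-voom and -0.00049 with the block. Over left-out libraries Dbp ranged from -0.08 to 0.79, Tef from -0.075 to 0.29 and Hlf from -0.0073 to 0.18. Between the HIRA KO times Dbp was -0.29 in limma-voom, -0.061 with the block, -0.28 with FPKM plus 1 and -0.34 with FPKM plus 0.1, and Usp2 was 0.10 and 0.13 with the FPKM pseudocounts. Over left-out libraries the ranges there were -0.23 to 0.62 (Dbp), -0.19 to 0.19 (Tef), -0.028 to 0.17 (Hlf), -0.043 to 0.36 (Nfil3), -0.50 to 0.52 (Ciart), -0.30 to 0.39 (Usp2) and -0.35 to 0.075 (Wee1). In the interaction Bhlhe41 was 0.086 and 0.015 with FPKM plus 1 and plus 0.1, and Hlf ranged from -0.17 to 0.026. The causes were not tested.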
